A study of Mus musculus with 15 samples.

Results

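Trp53 (the mouse gene for p53) and 9 of its target genes, Mdm2, Ccng1, Bax, Bbc3, Pmaip1, Perp, Phlda3, Zmat3 and Trp53inp1, were followed across 5 culture conditions of mouse embryonic stem cells. These 10 genes were taken by symbol from the count tables, which list 21516 genes, and all 10 were listed and passed the filter on low counts. The cells were of a REX-1 RFP line. Its red fluorescent protein is driven by the Rex1 promoter and so reports a gene (Zfp42) of the pluripotent state. There were 3 libraries per group from triplicate experiments, and every culture spent 72 h in its condition. The group NS (normal stemness) had leukaemia inhibitory factor (LIF), the cytokine that maintains mouse embryonic stem cells. The group ND (normal differentiation) had no LIF. The remaining 3 groups had LIF and 200, 250 or 300 mM sorbitol, an osmotically active polyol. Whether the line is a single clone is not given in the sources used here. Only messenger RNA was measured, from a sequencing protocol that counts tags near the 3' ends of transcripts, and tag counts are therefore independent of gene length. The comparisons ask how the RNA of p53 and of its targets stood after LIF withdrawal and in each concentration of sorbitol relative to NS, and whether it moved with the concentration.

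p53 is a transcription factor that is held at a low level because the ubiquitin ligase Mdm2, the product of a p53 target gene, marks it for degradation. Under DNA damage and other stresses the p53 protein is stabilised, largely without a change in its RNA, and it then activates genes of cell cycle arrest, repair and apoptosis together with Mdm2 itself, which closes a feedback loop. In mouse embryonic stem cells p53 is known to be abundant, to repress Nanog and to favour differentiation when activated.

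p53 acts on DNA through a response element of 2 adjoining repeats of 10 bases, each with a fixed C and G around a core. The windows from 250 bases before to 50 after the gene start were read from RefSeq on GRCm38.p6, a later build than the mm9 used for the counts. Windows of a single chromosome were left out, and those kept held 6 of the 10 genes in 8 windows. A gene without a window here may therefore have one in RefSeq. Those of Ccng1, Bbc3 and Trp53 are shown because they held the closest matches among these genes, with the 20-base match in capitals. That of Mdm2 is shown as the target with the highest counts and no close match here; its known response elements lie in the first intron, outside the window. The Ccng1 window is chr11:40755237-40755536 on the minus strand, the Bbc3 window chr7:16309333-16309632 on the plus strand, the Trp53 window chr11:69580109-69580408 on the plus strand and the Mdm2 window chr10:117710709-117711008 on the minus strand.
Ccng1: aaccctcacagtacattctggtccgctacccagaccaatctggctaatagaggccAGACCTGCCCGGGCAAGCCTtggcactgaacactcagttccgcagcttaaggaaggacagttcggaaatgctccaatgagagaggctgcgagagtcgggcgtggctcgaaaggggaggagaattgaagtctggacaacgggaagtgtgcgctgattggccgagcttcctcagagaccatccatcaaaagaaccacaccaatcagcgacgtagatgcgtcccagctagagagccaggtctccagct
Bbc3: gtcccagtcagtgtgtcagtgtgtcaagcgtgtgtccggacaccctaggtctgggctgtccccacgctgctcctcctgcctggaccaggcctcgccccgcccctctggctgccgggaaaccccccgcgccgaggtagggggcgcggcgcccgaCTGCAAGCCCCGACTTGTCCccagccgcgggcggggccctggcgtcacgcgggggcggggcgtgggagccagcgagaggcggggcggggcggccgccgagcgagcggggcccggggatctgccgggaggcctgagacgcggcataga
Trp53: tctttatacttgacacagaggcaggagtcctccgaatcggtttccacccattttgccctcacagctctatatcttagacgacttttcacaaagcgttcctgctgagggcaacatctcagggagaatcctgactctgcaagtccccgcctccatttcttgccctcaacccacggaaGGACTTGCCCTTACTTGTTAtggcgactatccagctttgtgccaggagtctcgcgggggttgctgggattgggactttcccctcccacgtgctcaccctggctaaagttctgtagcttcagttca
Mdm2: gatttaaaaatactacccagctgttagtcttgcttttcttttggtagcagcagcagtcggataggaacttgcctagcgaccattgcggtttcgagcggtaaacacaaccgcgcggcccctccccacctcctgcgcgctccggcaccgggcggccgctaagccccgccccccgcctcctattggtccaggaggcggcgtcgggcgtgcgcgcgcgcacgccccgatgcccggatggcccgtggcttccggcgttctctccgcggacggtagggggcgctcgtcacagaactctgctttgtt

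The Ccng1 match started 195 bases before the gene start and differed from the p53 response element at 1 position. A match at least that close occurred in 0.067% of 32851 RefSeq windows of this length. The Bbc3 match started 97 bases before the start and the Trp53 match 75 bases before it, and each differed at 3 positions, as did or bettered 1.38% of all windows. The best matches in the other Bbc3 windows differed at 7 and 8 positions. The best match in the Phlda3 window differed at 5 positions, a closeness reached by 12.4% of all windows, and those of Bax and Mdm2 differed at 7 and 9. The element reads the same on both strands, no spacer between the repeats was allowed, and the fixed C and G of each repeat had to be kept. A match describes the letters of the window and is not evidence that p53 was bound there.

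The libraries held 968556 to 2289528 counts. Replicate 1 of every group was the deepest, with at least 1872918, and replicates 2 and 3 held at most 1229075. Levels are in CPM, counts scaled by library total and TMM factor, and the 3 counts taken as the floor of detection were worth 1.31 to 3.1 CPM. Replicate 2 of ND and replicate 2 of 200 mM, the shallowest libraries, stood apart for several of these genes and are followed below. The label of the cells was checked against 10 pluripotency markers, all of which were detected in every group. Their summed level was 1862 to 2436 CPM in NS, 1367 to 2024 in ND and 2026 to 3022 in the sorbitol groups. The markers did not all move the same way. Their log2 changes against NS ran from -1.32 to 0.60 in ND, -1.13 to 0.69 at 200 mM, -1.015 to 1.29 at 250 mM and -0.75 to 1.16 at 300 mM. Against NS only Tdgf1 in ND passed the adjusted threshold, at -1.32 (edgeR adjusted p = 0.0473), 1 of 10 beside 0.0319% of all genes. Of 9 trophoblast markers the summed level was 40.9 to 67.8 CPM in NS, 75.2 to 149 in ND and 146.5 to 479.7 in sorbitol. Cdx2 was at 0 in NS and ND. The keratins Krt18 and Krt8 made up a large part of this sum in sorbitol, with group means of 148.5 to 169.8 and 51.3 to 119 CPM. Of the 7 trophoblast markers tested, 3, 5 and 5 passed edgeR's adjusted threshold of 0.05 at 200, 250 and 300 mM against NS, all higher. Over all genes 0.586%, 4.47% and 7.89% did. Of 8 primitive endoderm markers the summed level was 69.3 to 103 in NS, 94.3 to 122 in ND and 103 to 235 in sorbitol. Of 8 fibroblast markers, which would mark feeder cells, it was 3.14 to 18.8 CPM over all groups, with Col3a1, Lum and Postn at 0 throughout. The trophoblast sum was above every NS value in every sorbitol library, and the primitive endoderm sum at 250 and 300 mM, where p53 RNA was highest. Their part in the results below was not tested.

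p53 RNA stood lowest in ND, at a mean of 28.2 CPM, and highest at 250 and 300 mM sorbitol, at 51.7 and 59.2. Mdm2 had its highest means in ND and at 200 mM, Bax its lowest in the 3 sorbitol groups and Trp53inp1 its lowest at 250 and 300 mM. None of the 10 passed the adjusted threshold of 0.05 (edgeR's quasi-likelihood test, Benjamini-Hochberg adjustment over 9390 genes) in ND or in 200, 250 or 300 mM sorbitol against NS, where 0.0319%, 0.586%, 4.47% and 7.89% of all genes did. At an unadjusted p under 0.05 there was 1 of the 10 in ND, 4 at 200 mM, 1 at 250 mM and 3 at 300 mM, against 6.39%, 11%, 21.9% and 24.7% of all genes. DESeq2 also called 0 of the 10 in each of these comparisons, and 33, 161, 742 and 1031 genes in all. The authors' deposited tables called 0 of the 10 at an FDR under 0.05, and 16, 140, 595 and 935 genes in all. Without replicate 3 of NS, edgeR called 0 of the 10 in ND, 1 at 200 mM (Pmaip1), 1 at 250 mM (Bax) and 1 at 300 mM (Bax). It then called 74, 150, 1413 and 1500 genes in all. The difference that passed was between sorbitol and LIF withdrawal, in a comparison chosen after the values were seen. Trp53 RNA was 2.085-fold higher at 300 mM than in ND. That is 1 of the 10, beside 9.66% of all genes, and the call was lost without any single ND library.

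**Figure D1:**
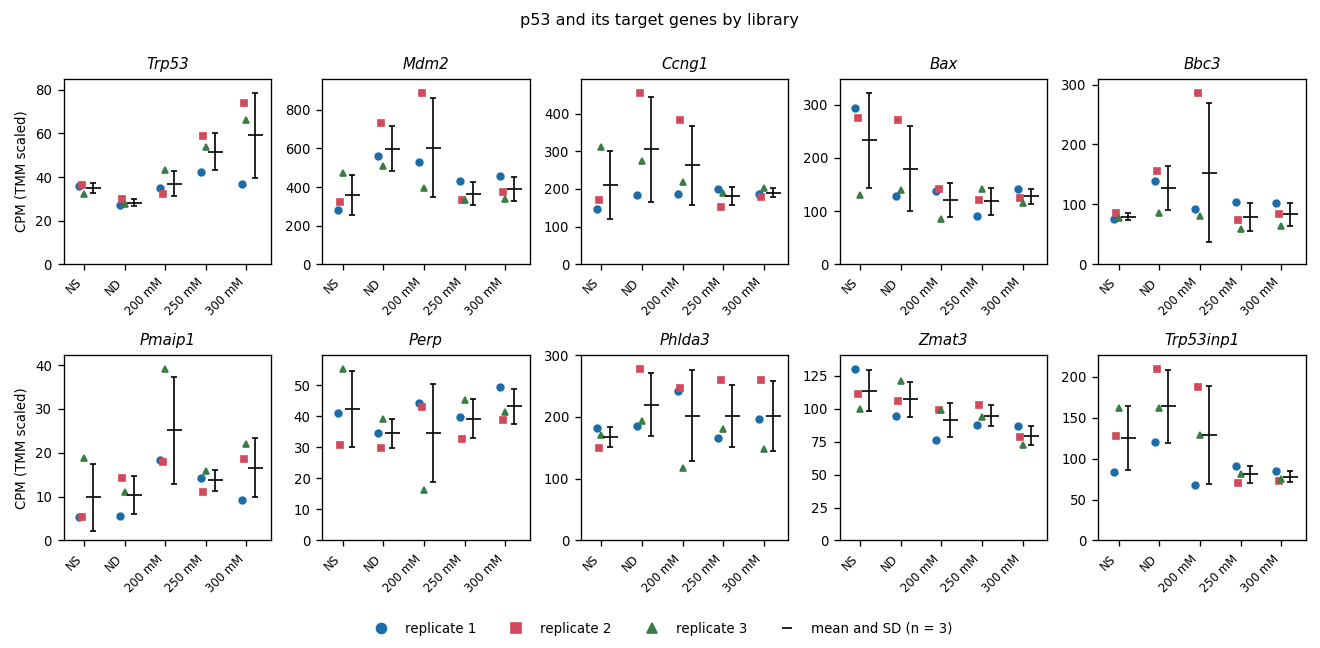
TMM-scaled CPM (vertical axes, each from 0) of the 10 genes in each of the 15 libraries, by group (horizontal axes), with symbols for the replicates and with bars for the mean and SD (n = 3). Trp53 stood at 27.0 to 29.8 CPM in ND and at 37.0 to 74.1 at 300 mM, and replicate 2 of ND and of 200 mM stood highest for Mdm2, Ccng1, Bbc3 and Trp53inp1.

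Trp53 itself was measured at 35.8, 36.4 and 32.1 CPM in replicates 1, 2 and 3 of NS, 27.0, 29.8 and 27.9 in ND, 34.8, 32.4 and 43.3 at 200 mM, 42.4, 58.7 and 53.8 at 250 mM and 37.0, 74.1 and 66.3 at 300 mM. Every ND library lay below every NS library, and every library at 250 and 300 mM lay above every NS library, at 300 mM by a margin of under 1 CPM for replicate 1. The group means ran from 59.2 ± 19.6 CPM (SD, n = 3) at 300 mM through 51.7 ± 8.38 at 250 mM, 36.9 ± 5.70 at 200 mM and 34.8 ± 2.31 in NS to 28.2 ± 1.47 in ND. In that order only NS and ND did not overlap with their neighbour. Fewer cells of a type and less RNA per cell cannot be told apart in these bulk samples, here or below.

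Against NS, Trp53 differed by a log2 change of -0.31 ± 0.28 (SE) in ND, 0.08 ± 0.28 at 200 mM, 0.56 ± 0.27 at 250 mM and 0.75 ± 0.27 at 300 mM. The edgeR adjusted p was 0.889, 0.958, 0.236 and 0.0996. The 95% interval at 300 mM ran from 0.18 to 1.33, so the call failed the adjustment over all genes although the interval lay above 0. Without replicate 1 of 300 mM the change there was 1.015 and was called (edgeR adjusted p = 0.0403). With a replicate block in the fit it was 0.70 and was called (0.0497). No other alternative called it, and without replicate 2 of 300 mM it was 0.56 (0.36). Over the 9 sorbitol libraries the slope of Trp53 was 0.33 ± 0.14 (log2) per 50 mM (edgeR adjusted p = 0.413). None of the 10 genes passed in that trend, where 0.101% of 8928 genes did. At an unadjusted p under 0.05 there were 3 of the 10, Trp53, Mdm2 and Trp53inp1, against 11.5% of genes, and DESeq2 called 0 of the 10 and 75 genes in all.

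The sorbitol groups were also set against ND directly, a comparison chosen after the values were seen. It compares sorbitol with LIF against no LIF without sorbitol, so the groups differ in both. Of the 10 genes, 0 were called at 200 mM, 0 at 250 mM and 1 at 300 mM by edgeR, against 1.93%, 5.87% and 9.66% of all genes. At an unadjusted p under 0.05 there were 1, 4 and 3 of the 10, against 12.2%, 21.4% and 24.9%. DESeq2 called 0, 1 and 2 of the 10, and 299, 790 and 1169 genes in all. The gene called at 300 mM was Trp53, with a log2 difference of 1.06 ± 0.28, a 95% interval of 0.47 to 1.65 and an adjusted p of 0.0234 in edgeR, higher in 3 of 3 libraries. At 250 mM it was 0.87 ± 0.28, with an adjusted p of 0.0749. The call at 300 mM was lost without replicate 1, 2 or 3 of ND (0.077, 0.0578 and 0.0551), without replicate 2 or 3 of 300 mM (0.121 and 0.08) and when only the 2 groups were fitted (0.0506). Trp53 has a processed pseudogene, and reads that both could take make its counts uncertain.

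Mdm2, the ligase that removes p53, was measured at 279.5, 322.6 and 474.7 CPM in NS, 560.0, 729.3 and 506.9 in ND, 528.1, 889.3 and 396.0 at 200 mM, 433.6, 332.6 and 332.6 at 250 mM and 457.5, 374.9 and 338.0 at 300 mM. It was the most abundant of the 10 genes by tag count. All 3 ND libraries lay above all 3 NS libraries, while the 200 mM libraries overlapped with NS. The means were 604.5 ± 255 CPM at 200 mM and 599 ± 116 in ND, and the groups NS, 250 mM and 300 mM lay lower, at 359 ± 103, 366 ± 58.3 and 390 ± 61.2. The log2 change against NS was 0.74 ± 0.29 in ND and 0.75 ± 0.29 at 200 mM, with adjusted p of 0.672 and 0.326 in edgeR. At 250 and 300 mM it was 0.03 ± 0.29 and 0.12 ± 0.29. Without replicate 2 of 200 mM the change at 200 mM was 0.37, and without replicate 2 of ND the change in ND was 0.60. Against ND, Mdm2 was lower in 3 of 3 libraries at 250 mM (-0.71 ± 0.29) and at 300 mM (-0.62 ± 0.29), with adjusted p of 0.167 and 0.199 in edgeR. Its slope over the sorbitol libraries was -0.32 ± 0.14 per 50 mM, with an adjusted p of 0.418, and -0.11 without replicate 2 of 200 mM.

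Ccng1 encodes cyclin G1, which recruits a phosphatase to Mdm2 and so acts in the same feedback. Its levels were 145.7, 171.8 and 312.3 CPM in NS, 183.7, 456.0 and 274.6 in ND, 187.6, 381.9 and 218.8 at 200 mM, 201.1, 153.2 and 188.5 at 250 mM and 186.6, 179.4 and 203.6 at 300 mM. All groups overlapped with NS, whose own libraries spanned most of the range. Relative to NS the log2 change was 0.53 ± 0.35 in ND, 0.32 ± 0.35 at 200 mM, -0.21 ± 0.35 at 250 mM and -0.14 ± 0.35 at 300 mM, with an adjusted p of 0.758 to 0.849 in edgeR. Without replicate 2 of ND the change in ND was 0.15. Against ND it was -0.74 ± 0.35 at 250 mM, with an adjusted p of 0.226.

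Bax encodes the pore-forming member of the BCL2 family that permeabilises mitochondria. The libraries gave 294.3, 275.4 and 130.3 CPM in NS, 127.8, 272.2 and 140.1 in ND, 136.9, 141.2 and 84.9 at 200 mM, 90.6, 121.5 and 142.5 at 250 mM and 142.5, 125.5 and 115.1 at 300 mM. Replicates 1 and 2 of NS and replicate 2 of ND stood at about the same high level, and every sorbitol library stood at 142.5 CPM or less, as did replicate 3 of NS. Bax differed from NS by a log2 change of -0.39 ± 0.34 in ND, -0.95 ± 0.34 at 200 mM, -0.99 ± 0.34 at 250 mM and -0.87 ± 0.34 at 300 mM, and the intervals of the sorbitol groups lay below 0. None passed the adjustment, with an edgeR adjusted p of 0.88, 0.272, 0.102 and 0.123. Without replicate 3 of NS, Bax was called lower at 250 mM and at 300 mM, with adjusted p of 0.0173 and 0.023.

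Bbc3 encodes PUMA, a protein that binds and neutralises the survival proteins of the BCL2 family. Its RNA stood at 75.0, 86.3 and 76.7 CPM in NS, 139.6, 156.4 and 85.9 in ND, 91.6, 286.7 and 80.0 at 200 mM, 104.2, 74.6 and 58.6 at 250 mM and 102.8, 83.4 and 64.5 at 300 mM. NS was tight, and the higher means of ND and 200 mM came with libraries that reached down to the NS range. The log2 change against NS was 0.68 ± 0.40 in ND, 0.93 ± 0.40 at 200 mM, 0.00 ± 0.40 at 250 mM and 0.08 ± 0.40 at 300 mM, with adjusted p of 0.809, 0.405, 0.997 and 0.928 in edgeR. Without replicate 2 of 200 mM the change at 200 mM was 0.12. Without replicate 2 of ND the change in ND was 0.54.

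Pmaip1 encodes NOXA, which neutralises the survival protein MCL1, and was the least abundant of the 10, with 38 to 102 counts per group. It stood at 5.26, 5.45 and 18.7 CPM in NS, 5.68, 14.3 and 11.1 in ND, 18.4, 17.8 and 39.2 at 200 mM, 14.1, 11.1 and 15.8 at 250 mM and 9.25, 18.5 and 22.1 at 300 mM. The 200 mM libraries lay above all ND libraries but overlapped with NS through replicate 3 of NS. Its log2 change against NS was 0.06 ± 0.56 in ND, 1.40 ± 0.51 at 200 mM, 0.54 ± 0.53 at 250 mM and 0.78 ± 0.53 at 300 mM, with adjusted p of 0.993, 0.289, 0.579 and 0.384 by edgeR. NS and 200 mM passed the check of replicate numbers, which does not show that cultures were shared. With a replicate block in the fit Pmaip1 was called higher at 200 mM. Its log2 change was 1.43 and its edgeR adjusted p 0.0462, beside 268 genes in all in place of 55. Against ND it was higher in 3 of 3 libraries at 200 mM, by 1.34 ± 0.52, with an adjusted p of 0.258. With the replicate block, for a pair of groups that also passed that check, it was 1.33 with an edgeR adjusted p of 0.0441. The block called 512 genes in place of 181. Without replicate 3 of NS the changes were 2.21, 1.35 and 1.59 at 200, 250 and 300 mM, and the call at 200 mM was made with an adjusted p of 0.0462. Over all single libraries left out they ran from 0.94 to 2.21, from 0.17 to 1.35 and from 0.42 to 1.59.

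**Figure D2:**
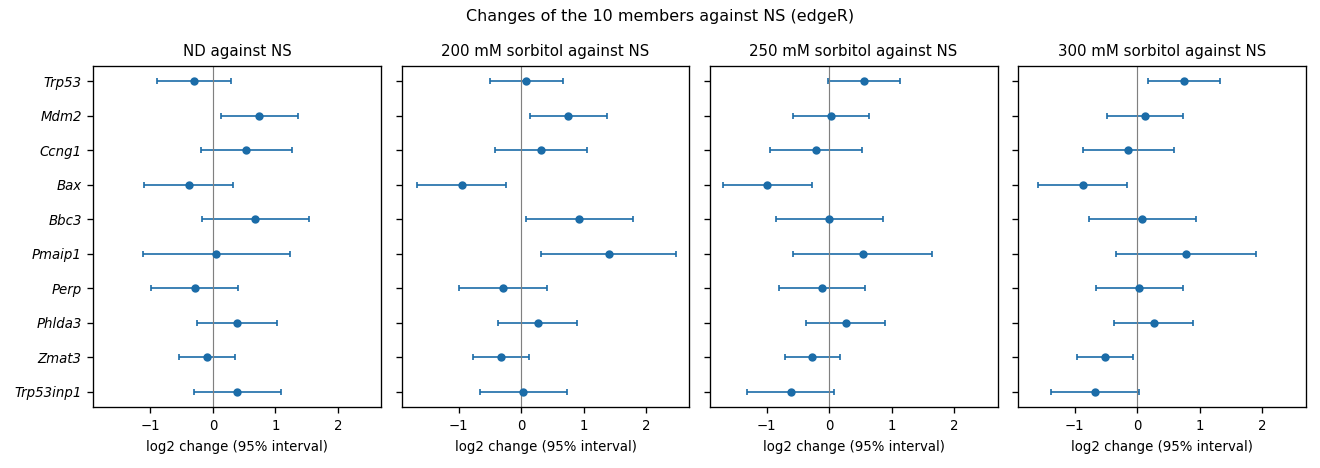
Log2 change against NS (horizontal axes) of the 10 genes in ND and in 200, 250 and 300 mM sorbitol, with edgeR's 95% intervals as bars. The Trp53 points run from -0.31 in ND to 0.75 at 300 mM, the Bax points lie between -0.87 and -0.99 in sorbitol, and none of the points passed the adjusted threshold.

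Perp and Phlda3 encode membrane-associated targets. Perp is a tetraspan protein of desmosomes with a part in apoptosis, and Phlda3 competes with the kinase AKT for membrane lipids. Perp was measured at 41.1, 30.9 and 55.3 CPM in NS, 34.5, 29.8 and 39.0 in ND, 44.3, 42.9 and 16.3 at 200 mM, 39.8, 32.5 and 45.1 at 250 mM and 49.5, 38.8 and 41.5 at 300 mM. All groups overlapped, and the log2 changes against NS were -0.29 ± 0.33 in ND, -0.29 ± 0.33 at 200 mM, -0.11 ± 0.33 at 250 mM and 0.03 ± 0.33 at 300 mM. Phlda3 was measured at 182.0, 150.0 and 170.4 CPM in NS, 186.0, 278.1 and 194.2 in ND, 241.9, 246.9 and 116.8 at 200 mM, 166.5, 259.6 and 179.8 at 250 mM and 196.4, 260.3 and 147.4 at 300 mM. The ND libraries lay above those of NS, and each sorbitol group overlapped with NS. The log2 change of Phlda3 was 0.38 ± 0.30 in ND, 0.27 ± 0.30 at 200 mM, 0.27 ± 0.30 at 250 mM and 0.26 ± 0.30 at 300 mM. The edgeR adjusted p of both genes was 0.631 or more in all 4 comparisons.

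Zmat3 encodes an RNA-binding zinc finger protein that acts in splicing. Libraries held 130.4, 110.9 and 99.9 CPM in NS, 94.2, 106.2 and 121.0 in ND, 76.2, 99.4 and 98.8 at 200 mM, 87.5, 103.2 and 93.4 at 250 mM and 87.0, 78.3 and 72.8 at 300 mM. All libraries at 200 and 300 mM lay below all NS libraries, at 200 mM by a margin of under 1 CPM. Zmat3 differed from NS by a log2 change of -0.09 ± 0.21 in ND, -0.32 ± 0.21 at 200 mM, -0.27 ± 0.21 at 250 mM and -0.52 ± 0.21 at 300 mM. The adjusted p at 300 mM was 0.141 in edgeR, and the 95% interval ran from -0.97 to -0.07.

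Trp53inp1 encodes a nuclear protein that aids p53 in stress. It was measured at 84.1, 128.1 and 162.4 CPM in NS, 120.2, 210.1 and 161.6 in ND, 68.2, 188.3 and 129.0 at 200 mM, 91.1, 70.7 and 81.6 at 250 mM and 85.4, 73.3 and 74.6 at 300 mM. The 250 and 300 mM libraries were the tightest groups and lay below all ND libraries, and they overlapped with NS through replicate 1 of NS. The log2 change against NS was 0.39 ± 0.33 in ND, 0.04 ± 0.33 at 200 mM, -0.61 ± 0.33 at 250 mM and -0.67 ± 0.33 at 300 mM, with adjusted p of 0.872, 0.984, 0.289 and 0.222 in edgeR. The slope over the sorbitol libraries was -0.36 ± 0.15 per 50 mM (adjusted p = 0.391), and -0.16 without replicate 2 of 200 mM. Against ND it was -1.005 ± 0.33 at 250 mM and -1.07 ± 0.33 at 300 mM, with adjusted p of 0.0843 and 0.0524 in edgeR. DESeq2 called both of these differences, as did fits with no filter, with a replicate block or of only the 2 groups. That at 300 mM was also called with replicates 2 and 3 alone and without replicate 1 of ND. The other alternatives called neither. Trp53 and Trp53inp1 thus stood on opposite sides of ND at 300 mM in every library.

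Counted by libraries that did not overlap with NS, the 10 genes gave 3 in ND (Mdm2 and Phlda3 higher, Trp53 lower), against 8.36% of all genes. They gave 1 at 200 mM (Zmat3 lower), against 12.4%. They gave 1 at 250 mM (Trp53 higher), against 27.9%, and 2 at 300 mM (Trp53 higher, Zmat3 lower), against 27.8%. Against ND the counts were 2 at 200 mM (Trp53 and Pmaip1 higher), 3 at 250 mM (Trp53 higher, Mdm2 and Trp53inp1 lower) and 4 at 300 mM (Trp53 higher, Mdm2, Trp53inp1 and Zmat3 lower), against 14%, 29.3% and 29.7%. The comparisons against NS share the NS libraries and those against ND share the ND libraries. The median log2 change of the 10 genes against NS was 0.22 in ND, 0.18 at 200 mM, -0.06 at 250 mM and 0.06 at 300 mM, beside medians of -0.01 to 0.01 over all tested genes.

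Single libraries carried much of the spread among the targets. For 4 of the 10 genes, Mdm2, Ccng1, Bbc3 and Trp53inp1, the 2 highest of the 15 libraries were replicate 2 of ND and replicate 2 of 200 mM, a pattern noticed after the values were seen. Over all tested genes this held for 351, or 3.74%. Cdkn1a, the cell cycle inhibitor p21 and a classic p53 target outside the 10, was also highest in these libraries, at 287.7 and 198.8 CPM. Trp53 itself was not high in either, at 29.8 and 32.4 CPM. These were the 2 shallowest libraries. The median of 73 ribosomal protein genes stood 0.83 above its mean on the log2 scale in the ND library and 0.07 above it in the 200 mM library. In replicates 1, 2 and 3 of NS that median stood at -0.48, -0.44 and 0.15. The part of depth in the pattern was not tested.

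**Figure D3:**
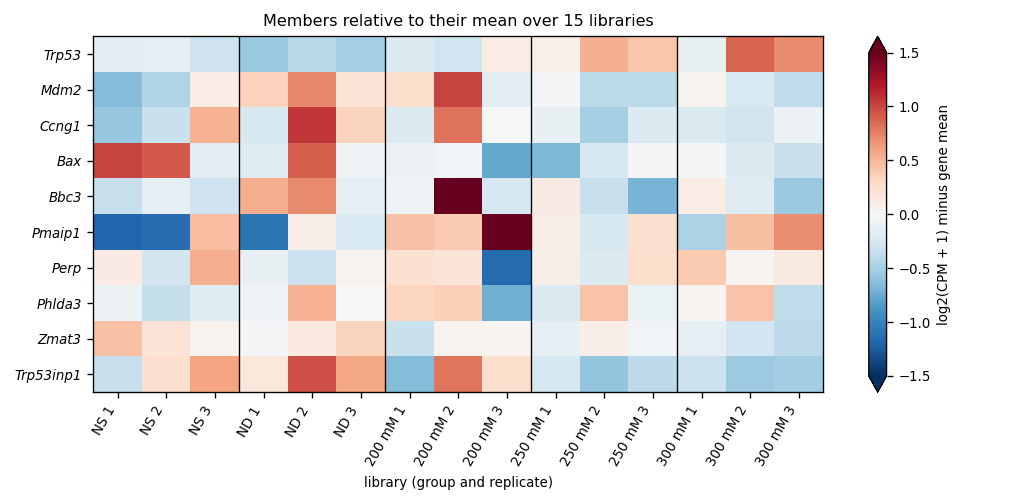
Level of the 10 genes as log2 of CPM plus 1, minus each gene's mean over the 15 libraries, with genes as rows, libraries as columns grouped by condition, and red above and blue below the mean. Replicate 2 of ND and of 200 mM show the highest levels of Mdm2, Ccng1, Bbc3 and Trp53inp1, and Trp53 is highest in replicates 2 and 3 of 300 mM.

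Genes whose pattern was most like that of Trp53 were sought over the 15 libraries by the root mean square difference of log2 CPM centred on each gene's mean. Among the 3 closest of 9390 genes were Ercc3 at 0.217 and Xylt2 at 0.228, against a spread of 0.43 of Trp53 about its own mean. Ercc3 encodes a helicase of transcription and DNA repair, and its mean was 71.6 CPM in NS, 67.5 in ND, 83.1 at 200 mM, 116 at 250 mM and 105 at 300 mM. Xylt2 encodes a xylosyltransferase of proteoglycan synthesis, and its means were 33.5, 35.1, 43.8, 55.1 and 53.2 CPM in the same order. Both shared with Trp53 the higher means at 250 and 300 mM, and such a ranking describes these libraries only.

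The wider pathway was read from lists of 18 p53 regulators, 10 targets of arrest and stress, 11 other death targets and 12 listed targets of repair and metabolism, 51 genes in all, of which 42 could be tested. No gene of them was called in ND or at 200 mM against NS or in the dose trend. At 250 and at 300 mM 0 were higher and 2 lower, the same genes Gdf15 and Tigar, of 42 tested, beside 4.47% and 7.89% of all genes, so their number is no result about the pathway. The medians of the 42 genes were 0.20, 0.08, 0.02 and 0.05 in ND, 200, 250 and 300 mM, beside -0.01 to 0.01 over all tested genes. Among the 16 regulators tested 0 were called in any comparison against NS, and 0 of the 8 other death targets were called in any comparison.

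**Figure D4:**
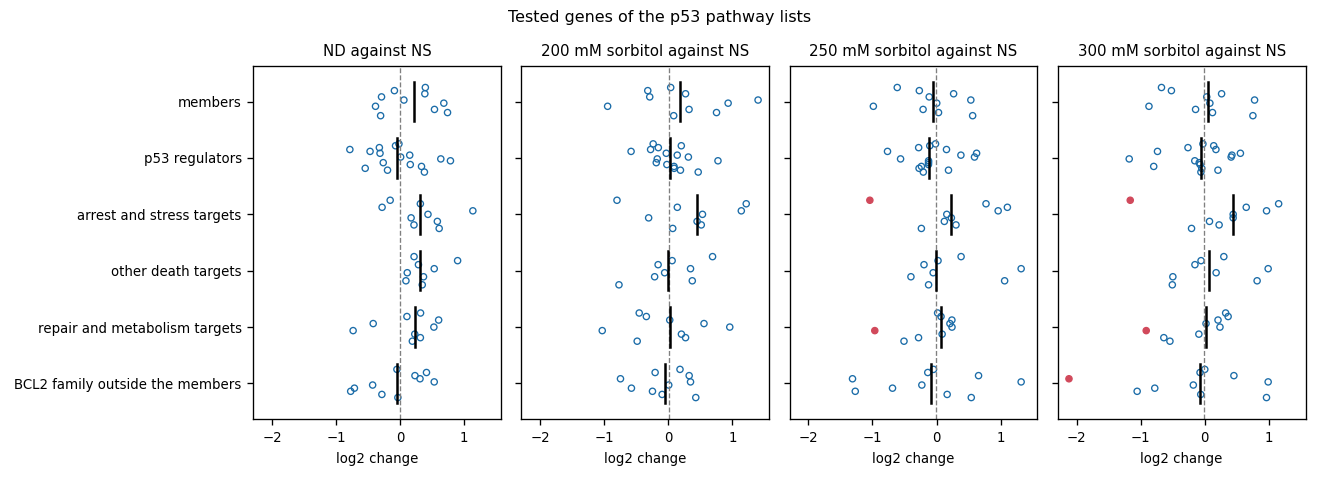
Log2 change against NS of each tested gene (points) of the 10 genes and of each wider list, with the list's median as a black bar and called genes as filled red points, in ND and the 3 sorbitol groups. The medians of the 10 genes lie between -0.06 and 0.22, and the called genes Gdf15, Tigar and Bik lie below 0.

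Cdkn1a was measured at 110 ± 7.17 CPM in NS (SD, n = 3), 169 ± 103 in ND, 116 ± 71.5 at 200 mM, 93.4 ± 8.21 at 250 mM and 95.2 ± 9.59 at 300 mM. Its log2 changes against NS were 0.61 ± 0.38, 0.07 ± 0.39, -0.24 ± 0.39 and -0.20 ± 0.39, none of them called. Mdm4, the partner of Mdm2 that inhibits p53, was measured at 122.5 ± 23.7 CPM in NS, 159 ± 25.6 in ND, 169 ± 28.9 at 200 mM, 106 ± 26.7 at 250 mM and 117 ± 3.8 at 300 mM. Its log2 changes were 0.38 ± 0.24, 0.47 ± 0.24, -0.21 ± 0.24 and -0.06 ± 0.24, none of them called. The ND and 200 mM groups had the highest means of Mdm4 as they had of Mdm2. The p53 relatives were near the floor: Trp63 had 0, 1, 4, 0 and 1 counts over the libraries of NS, ND, 200, 250 and 300 mM, and Trp73 had 15, 22, 5, 1 and 6, too few to test.

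Gdf15, a stress-induced cytokine of the TGF-beta family, was measured at 187, 146 and 99.9 CPM in NS, 141, 122 and 126.5 in ND, 88.1, 104 and 58.0 at 200 mM, 55.0, 84.9 and 72.1 at 250 mM and 64.2, 67.4 and 62.6 at 300 mM. The 250 and 300 mM libraries lay below all NS and ND libraries. It was lower by a log2 change of -1.04 ± 0.27 at 250 mM and -1.16 ± 0.27 at 300 mM against NS, with adjusted p of 0.0377 and 0.0169 in edgeR, and by -1.005 ± 0.27 at 300 mM against ND, with 0.0269. Without single libraries the calls against NS were lost for each library left out except replicate 3 of NS, at adjusted p of 0.0836 to 0.194 at 250 mM and 0.0548 to 0.0934 at 300 mM. Without replicate 1 of ND or any library of 300 mM the call against ND was lost, at adjusted p of 0.0806 to 0.0849, while the log2 difference was -0.94 to -1.03.

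Tigar, listed in the tables under its older symbol 9630033F20Rik, encodes a phosphatase that lowers glycolysis. Its levels were 292, 243 and 199.9 CPM in NS, 181, 122 and 137 in ND, 155, 92.1 and 110.2 at 200 mM, 147, 112 and 118 at 250 mM and 144, 139.8 and 107 at 300 mM. All libraries of the other groups lay below all NS libraries. The log2 change against NS was -0.74 ± 0.25 in ND and -1.03 ± 0.25 at 200 mM, neither of them called (edgeR adjusted p of 0.55 and 0.085). It was -0.96 ± 0.25 at 250 mM and -0.91 ± 0.25 at 300 mM, both called, with adjusted p of 0.0397 and 0.0367 in edgeR. Both calls were lost for each library left out except replicate 3 of NS, at 0.0819 to 0.176 and 0.0668 to 0.153.

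Beside the BCL2 members Bax, Bbc3 and Pmaip1, 10 other genes of the family were tested, and against NS only Bik at 300 mM was called, 1 of 10 beside 7.89% of all genes. Bik, an activator of apoptosis of the same class as PUMA, was measured at 56.9, 45.4 and 35.7 CPM in NS, 61.1, 40.6 and 69.2 in ND, 19.9, 50.2 and 14.7 at 200 mM, 15.7, 20.6 and 19.8 at 250 mM and 12.0, 6.74 and 12.9 at 300 mM. The 250 and 300 mM libraries lay below all NS and ND libraries. At 300 mM it was lower by a log2 change of -2.12 ± 0.42 against NS, with an adjusted p of 0.00762 in edgeR, and by -2.43 ± 0.42 against ND, with 0.00205. Both calls stood without any single library. At 250 mM against ND it was lower by -1.62 ± 0.39, with an adjusted p of 0.0224, a call lost without replicate 1 or 3 of ND (0.064 and 0.0646) or any library of 250 mM (0.0678 to 0.107).

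Among the regulators, Cdkn2a at 300 mM was the 1 of 16 called against ND, beside 9.66% of all genes, named after its value was seen. It encodes the Mdm2 inhibitor ARF and the cell cycle inhibitor p16, which counts per gene do not tell apart. It was measured at 109, 134.5 and 161 CPM in NS, 142.5, 298 and 188 in ND, 66.7, 185 and 109 at 200 mM, 63.9, 97.6 and 112 at 250 mM and 57.1, 53.9 and 67.2 at 300 mM. The 300 mM libraries lay below all NS and ND libraries. Against NS, Cdkn2a was lower at 300 mM by -1.18 ± 0.36 (log2), with an edgeR adjusted p of 0.0516. It was lower than in ND by -1.81 ± 0.36 (log2; edgeR adjusted p = 0.0047), a call that stood without any single library.

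**Figure D5:**
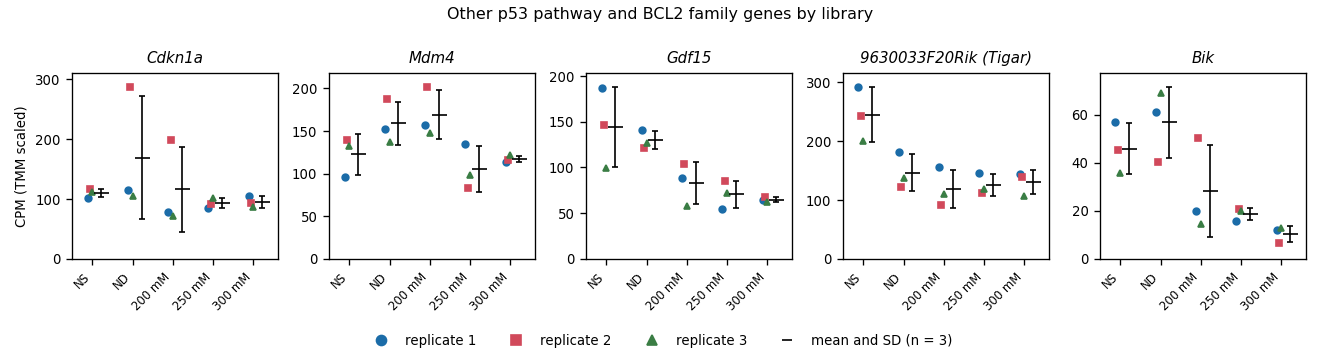
TMM-scaled CPM (vertical axes, each from 0) of Cdkn1a, Mdm4, Gdf15, Tigar (9630033F20Rik) and Bik in each of the 15 libraries by group, with bars for the mean and SD (n = 3). Bik stood at 6.74 to 12.9 CPM at 300 mM, below every NS library, and Cdkn1a was highest in replicate 2 of ND, at 287.7 CPM.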

How the data were processed

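RNA of 15 libraries was measured by 3' tag sequencing, in 5 groups of 3, grouped by the labelled condition. Per the submitters' processing notes, reads were called with CASAVA 1.8.2, aligned with STAR to mm9, counted with HTSeq and tested by the authors with edgeR. The sources used here give no annotation, strand setting or further versions, so overlapping and antisense genes could not be told apart. The authors deposited whole-number counts per gene, in 4 tables that each repeat the NS libraries, with 0 differences between the repeats. The deposited log2 columns held the log2 fold change and log2 CPM, the deposited score columns held the signed fold and the likelihood ratio, the p-value and FDR columns deposited beside them were used only to count the authors' calls, and the deposited signal columns held group means of raw counts, left unused with their SDs. Of the columns of per-sample values, 0 were left without a sample.

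The 10 genes, the wider lists and the tests were chosen with earlier results of these data known. Counts were tested with edgeR 4.0.16 in R 4.3.3 (glmQLFit and glmQLFTest, TMM factors, filterByExpr with a minimum count of 10 and a minimum total of 15, Benjamini-Hochberg adjustment at 0.05), after a check on simulated data. A single fit with a term per group took all 15 libraries, and the trend was a slope per 50 mM over 9 libraries. The SE is the absolute log2 change over the square root of the F statistic, and 95% intervals used the fit's degrees of freedom. Replicates of a group differed by more than sampling noise (chi-square per degree of freedom 2.45 to 29.3), hence no library duplicated another of its group. Pairs from different groups were not checked. The p-values test a difference against the spread between libraries, estimated over all groups in the fit. No molecular identifiers are named, and floors therefore allow for counting error alone. Likeness and pairing used log2 of CPM plus a pseudocount of 1.

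Named always were the 10 genes, Cdkn1a, Mdm4, Gdf15, Trp63 and Trp73. From each list, up to 4 genes past the threshold in the 4 comparisons against NS and the trend were also named. Marker genes are given mainly as sums. The 3 genes most like Trp53 were also taken, of which 1 is not reported here. Alternatives were other scalings, DESeq2 1.42.0, no filter, fits of the 2 groups alone, a replicate block, replicates 2 and 3 alone, and each library left out. Since replicate numbers are shared, deviations from group means were correlated between same-numbered libraries. Replicate 1 was the deepest library of every group, so this check cannot tell shared cultures from shared depth. The correlation exceeded 0.1 in all 3 pairs in 4 of 10 pairs of groups. For NS and 200 mM it was 0.68, 0.11 and 0.62, for ND and 200 mM 0.63, 0.47 and 0.53, and the remaining pairs joined 250 mM to 200 mM and to 300 mM.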

Additional observations from a re-analysis of the deposited data

Results flagged for a closer look

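Groups of 3 libraries are too small for a test of single outlying samples, so none was made. In each of the following results the change of a sorbitol group against NS and that of LIF withdrawal against NS differed by a direct edgeR test of the sorbitol group against ND, over 9390 genes. The test was chosen after the values were seen, and the groups differ in both LIF and sorbitol. Trp53 was higher at 300 mM than in ND by a log2 difference of 1.06 (adjusted p = 0.0234), above ND in 3 of 3 libraries. Gdf15 was lower at 300 mM by -1.005 (adjusted p = 0.0269), below ND in 3 of 3 libraries. Cdkn2a was lower at 300 mM by -1.81 (adjusted p = 0.0047), below ND in 3 of 3 libraries. Bik was lower at 250 mM by -1.62 (adjusted p = 0.0224) and at 300 mM by -2.43 (adjusted p = 0.00205), below ND in 3 of 3 libraries at each concentration.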

How the results depend on the processing

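Of 672 values of the 10 genes under the alternatives, 609 kept their direction and their side of the threshold, 6 lost a call, 21 gained one and 36 turned sign, most of these near 0. The causes were not tested. Fits with fewer libraries or fewer pooled groups have fewer degrees of freedom, and the part of this in the changed calls was not tested either. Depth limits Pmaip1 most, with 38 to 102 counts per group. Library totals moved the median of all genes by over 0.1 in 1 comparison, 250 mM against ND, from -0.0075 to 0.12.

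All genes called, counted in turn under DESeq2, no filter, the replicate block and replicates 2 and 3 alone, were 33, 37, 40 and 0 in ND (3 as reported), 161, 161, 268 and 4 at 200 mM (55), 742, 825, 1683 and 28 at 250 mM (420), and for the trend 75, 148, 111 and 27 (9). Against ND they were 299, 342, 512 and 35 at 200 mM (181). At 300 mM the block gave 1868 and replicates 2 and 3 gave 116 (741). Against ND, no filter gave 836, the block 1419 and replicates 2 and 3 140 at 250 mM (551), and the block 1863 and replicates 2 and 3 361 at 300 mM (907). With only the 2 groups fitted, calls were 0 in ND, 1 at 200 mM, 462 at 300 mM and 48 at 200 mM against ND. DESeq2 size factors gave 1 in ND, library totals gave 0 in the trend, and a fit of 300 against 200 mM in place of the trend gave 2. With each library left out, counts against NS ran over 0 to 74 in ND and 12 to 150, 84 to 1413 and 210 to 1500 at 200, 250 and 300 mM. The highest count of each of these 4 comparisons came without replicate 3 of NS. Leaving out any other library lowered the count there. Counts ran over 0 to 41 in the trend, and over 97 to 168, 206 to 434 and 461 to 839 against ND.

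The replicate block called 1 of the 10 genes at 200 mM (Pmaip1), 1 at 250 mM (Bax, 0.0265), 2 at 300 mM (Bax, 0.0393; Trp53, 0.0497), and against ND 1, 2 and 2 at 200, 250 and 300 mM. No filter called 1 at 250 mM, 1 at 250 mM against ND and 2 at 300 mM against ND. DESeq2 called 1 and 2 there, replicates 2 and 3 called 2 at 300 mM against ND, and the 2-group fit called 1 at 250 mM against ND. Leaving out a library gave 0 to 1 at 200, 250 and 300 mM and at 300 mM against ND. Of 30 same-numbered pairs 24 correlated above 0.1, and 13 of 15 libraries were closest to their own number.

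Signs turned in ND for Pmaip1 (library totals -0.0032; leave-one-out -0.31 to 0.86) and Zmat3 (replicates 2 and 3 0.083; leave-one-out -0.19 to 0.019). At 200 mM Cdkn1a turned under the block (-0.048; leave-one-out -0.55 to 0.32), and leave-one-out ranges crossed 0 for Trp53 (-0.046 to 0.16), Ccng1 (-0.045 to 0.72), Perp (-0.54 to 0.040) and Trp53inp1 (-0.34 to 0.35). At 250 mM Bbc3 turned under DESeq2 size factors (-0.00063), DESeq2 (-0.0031), the block (-0.011), replicates 2 and 3 (-0.31), 2 groups (-0.0010) and leave-one-out (-0.25 to 0.18), and Mdm2 under replicates 2 and 3 (-0.28; leave-one-out -0.12 to 0.28). Ccng1 ran over -0.42 to 0.19 and Perp over -0.28 to 0.11 there. At 300 mM replicates 2 and 3 turned Mdm2 (-0.16; leave-one-out -0.030 to 0.38), Bbc3 (-0.14; -0.10 to 0.24) and Perp (-0.10; -0.12 to 0.26), and leave-one-out crossed 0 for Ccng1 (-0.35 to 0.26) and Mdm4 (-0.21 to 0.074). Replicates 2 and 3 alone lost the calls of Gdf15, Tigar and Bik against NS, and against ND those of Gdf15 at 300 mM (0.159) and Bik at 250 mM (0.178). Calls at 250 mM were lost with library totals (Gdf15 0.0523, Tigar 0.0516) and 2 groups (0.0791 and 0.0587), and that of Tigar at 300 mM with no filter (0.0507) and 2 groups (0.059).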
